A study of Mus musculus with 4 samples.

Results

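The genes of the neuropeptide secretory granule were followed in the mouse dentate gyrus (DG), the part of the hippocampus whose main neurons are the granule cells. The set holds 10 genes: the granins Scg2, Scg3, Chga and Chgb, the chaperone gene Scg5, the precursor Vgf, the prohormone convertases Pcsk1 and Pcsk2, and the trimming and amidating enzymes Cpe and Pam. Every probe set annotated to them was taken, whatever its value. A probe set is a group of oligonucleotides on the array that reads 1 transcript. The annotation used holds 9 probe sets for 8 of the 10 genes among the 22690 on the array, and none for Vgf or Pcsk2, which are therefore not analysed here. A probe set was counted when its mean signal over the 4 arrays was at least 50, which 13422 probe sets of 7935 genes met. Among the members, 7 genes passed with 1 probe set each, and a further probe set of Cpe and the only one of Pcsk1 lay below it.

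Pooled DG RNA of C57Bl/6 mice was hybridized to 1 Affymetrix mouse 430A array for each of 4 groups. Mice received electroconvulsive stimulation (ECS), an electrical seizure treatment given through ear clips under isoflurane, in 11 sessions, or sham handling in 11 sessions without the shock. The other mice drank fluoxetine, a selective serotonin reuptake inhibitor, at 22 mg/kg per day for 4 weeks with saccharin in the solution, or water as the vehicle. The methods describe C57BL/6J or C57BL/6N males of 8 weeks, tissue taken 24 h after the last ECS, where the sample labels of both groups say 6 h, and fluoxetine-treated mice selected for a low frequency facilitation at the mossy fiber synapse (n = 3). With 1 array per group there is no replicate, so no test, p-value or SD could be obtained for any difference below.

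Neurons that release peptides pack the precursors into dense-core secretory granules that bud from the trans-Golgi network. Granins help these granules to form and are themselves cut into peptides. Convertases cleave the precursors after pairs of basic residues, carboxypeptidase E removes the basic residues left at the ends, and peptidylglycine alpha-amidating monooxygenase gives many peptides their amidated end. Granule cells use such granules for peptides and neurotrophins in their mossy fibers, and interneurons of the DG carry others.

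Several granule genes are textbook targets of CREB, the factor that binds the cAMP response element, so the promoters of the members were searched. RefSeq windows on GRCm38.p6 from 250 bases before to 50 bases after the annotated start matched 8 of the 10 genes in 9 windows, without Vgf and Cpe. Both strands were searched for the full cAMP response element TGACGTCA, for its short form TGACG, which lies inside the full one, for the AP-1 site TGANTCA and for the Egr site GCGTGGGCG. The upstream 250 bases are shown for the members with the highest ratios, Scg2 and Chga, and for Chgb and Pcsk1, the other windows with the full element. Each is written 5′ to 3′ on the strand of the gene, and capitals mark the full or short element. Scg2 is at chr1:79440027-79440276 on the minus strand, Chga at chr12:102554691-102554940, Chgb at chr2:132781392-132781641 and Pcsk1 at chr13:75089607-75089856, all on the plus strand.
Scg2: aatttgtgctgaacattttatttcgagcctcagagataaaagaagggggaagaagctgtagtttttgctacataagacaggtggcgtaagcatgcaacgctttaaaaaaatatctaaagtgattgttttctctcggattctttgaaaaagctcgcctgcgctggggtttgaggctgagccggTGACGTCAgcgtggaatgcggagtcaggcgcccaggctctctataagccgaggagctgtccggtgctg
Chga: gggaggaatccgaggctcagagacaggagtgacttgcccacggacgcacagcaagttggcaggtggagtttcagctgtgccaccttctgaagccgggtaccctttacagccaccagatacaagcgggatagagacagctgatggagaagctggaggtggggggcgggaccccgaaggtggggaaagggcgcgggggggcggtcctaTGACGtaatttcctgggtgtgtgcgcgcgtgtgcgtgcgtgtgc
Chgb: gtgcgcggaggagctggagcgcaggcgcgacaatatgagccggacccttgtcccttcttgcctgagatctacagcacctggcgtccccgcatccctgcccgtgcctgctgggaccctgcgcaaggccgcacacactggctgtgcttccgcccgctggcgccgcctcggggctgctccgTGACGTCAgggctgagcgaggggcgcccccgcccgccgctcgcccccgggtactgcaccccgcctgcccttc
Pcsk1: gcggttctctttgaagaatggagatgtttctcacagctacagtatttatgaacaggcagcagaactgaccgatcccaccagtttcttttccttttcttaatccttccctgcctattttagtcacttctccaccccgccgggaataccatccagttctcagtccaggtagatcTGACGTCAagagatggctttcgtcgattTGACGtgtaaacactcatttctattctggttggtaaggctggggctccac

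The full element was found in 3 of the 8 genes. Counting the annotated first base of the transcript as 0, it lay at -68 to -61 in Scg2, at -72 to -65 in Chgb and at -78 to -71 in Pcsk1. Of all 32851 windows of the table, 1.79% held it. Chga had only the short form, at -44 to -40. The short form was in 7 of the 8 genes, once each in Scg3 and Pcsk2 and 3 times in Scg5, with Pam as the exception. It was in 20.8% of all windows and, counted by gene, in 2436 of the 6480 measured genes with a window, or 37.6%. No member window held the AP-1 letters, found in 7.81% of all windows, or the Egr letters, found in 0.612%. Counted by gene, the full element was in 239 of the 6480 measured genes with a window and in 5 of the 177 such genes that were at least 1.5-fold higher with both treatments. Among the listed genes with a window, described below, it was in 3 of 26 peptide precursors, 2 of 27 small synaptic vesicle genes, 1 of 23 genes of granule formation and release, 0 of 15 other processing enzymes and 0 of 17 peptide-degrading enzymes. Such a match describes the letters of a window and is not evidence of binding.

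**Figure D1:**
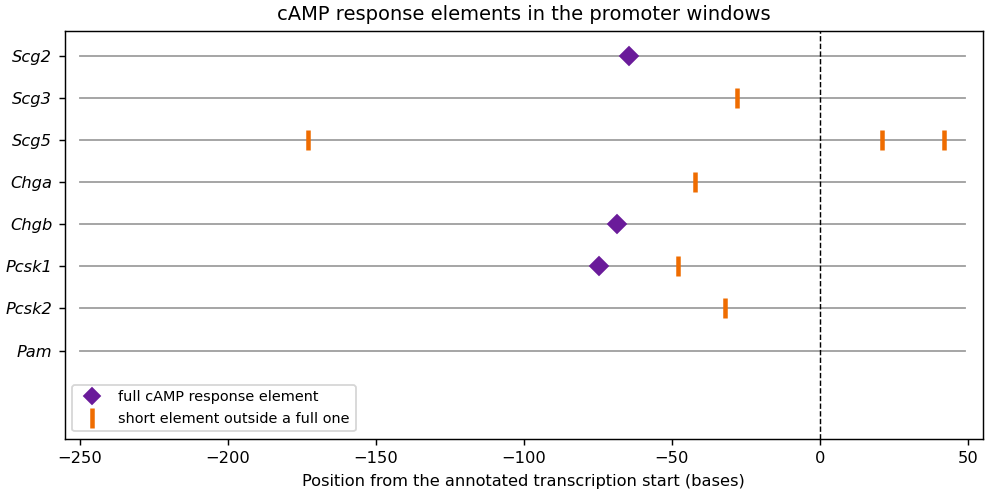
Positions of cAMP response elements in the RefSeq promoter windows of 8 member genes, in bases from the annotated transcription start (dashed line at 0). Diamonds are full elements and bars are short elements outside a full one; Scg2, Chgb and Pcsk1 carry a full element between -78 and -61, and Pam carries neither form.

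The signals are MAS5 intensities without a common scale. The median log2 ratio over all probe sets past the signal minimum was -0.10 for ECS over sham and 0.12 for fluoxetine over vehicle. For the members, values centred on the median of each array are therefore given beside the deposited ones. The related gene lists and cell type markers below are counted on the deposited signals, and centring changed some of those counts. Other processing enzymes higher with fluoxetine went from 2 to 1 and peptide-degrading enzymes from 1 to 0. Granule cell markers lower with ECS went from 4 to 3. The only comparison of untreated pools is sham with vehicle. From it a control spread was taken for each probe set, by taking the 500 probe sets of most similar mean signal and computing the median absolute deviation, scaled to an SD, of their centred sham/vehicle log2 ratios. The control spread was 0.11 to 0.18 for the 7 members, and their own centred ratios of sham to vehicle ran from 0.02 to 0.19. It is a spread across probe sets of 1 pair of arrays and not an error between mice. The weakest signal of the 7 members was 301.2, so none passed the minimum through a treated array alone.

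Among the granins, Scg2 and Chga were higher with both treatments, Chgb was higher by slightly less than 1.5-fold, and Scg3 was nearly level with ECS. Scg2 encodes secretogranin II, the precursor of secretoneurin. Its probe set 1450708_at had a signal of 2547.0 on sham, 4700.6 on ECS, 3420.4 on vehicle and 7049.1 on fluoxetine. Both treated arrays were above both control arrays. The signal was 1.85-fold higher with ECS (log2 ratio 0.88, centred 0.99) and 2.06-fold higher with fluoxetine (log2 ratio 1.04, centred 0.92), against a control spread of 0.11. Relative to the median of its own array, Scg2 stood at log2 3.43 on sham, 4.42 on ECS, 3.35 on vehicle and 4.27 on fluoxetine, so the arrays formed a low control pair and a high treated pair once their overall brightness was removed. Of all probe sets, 1.75% had a ratio at least as high with ECS and 2.38% with fluoxetine.

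Chga encodes chromogranin A, an acidic granule core protein and precursor of several peptides. Its probe set 1418149_at read 301.2 on sham, 528.1 on ECS, 422.5 on vehicle and 1353.5 on fluoxetine. The fluoxetine array stood far above the other 3, and the ECS array was above both control arrays. The signal was 1.75-fold higher with ECS (log2 ratio 0.81, centred 0.92) and 3.20-fold higher with fluoxetine (log2 ratio 1.68, centred 1.55), and its control spread was 0.15. The fluoxetine ratio of Chga was the highest of the 7 members, and 0.767% of all probe sets reached it. The log2 ratio with fluoxetine exceeded that with ECS by 0.87, or by 0.64 after centring, which with 1 array per group was not tested.

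Chgb encodes chromogranin B, another core granin. The signals of 1415885_at were 3775.0 on sham, 5543.6 on ECS, 5185.7 on vehicle and 7369.6 on fluoxetine. Both treated arrays were again above both controls, though the deposited signals of the ECS and vehicle arrays lay close together. Relative to the median of its own array, Chgb stood at log2 4.00 on sham, 4.66 on ECS, 3.95 on vehicle and 4.33 on fluoxetine. The signal was 1.47-fold higher with ECS (log2 ratio 0.55) and 1.42-fold higher with fluoxetine (log2 ratio 0.51), short of 1.5-fold in both. Centring moved these log2 ratios to 0.66 and 0.38, which put the ECS value past 1.5-fold and left the fluoxetine value below it. The control spread was 0.11.

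Scg3 encodes secretogranin III, which anchors chromogranin A to the granule membrane. Its probe set 1448628_at gave 2218.9 on sham, 2205.9 on ECS, 2871.2 on vehicle and 3858.6 on fluoxetine. Sham and ECS were nearly equal and fluoxetine was highest. Its log2 ratios were -0.01 (ECS) and 0.43 (fluoxetine), or 0.10 and 0.30 after centring, with a control spread of 0.14.

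**Figure D2:**
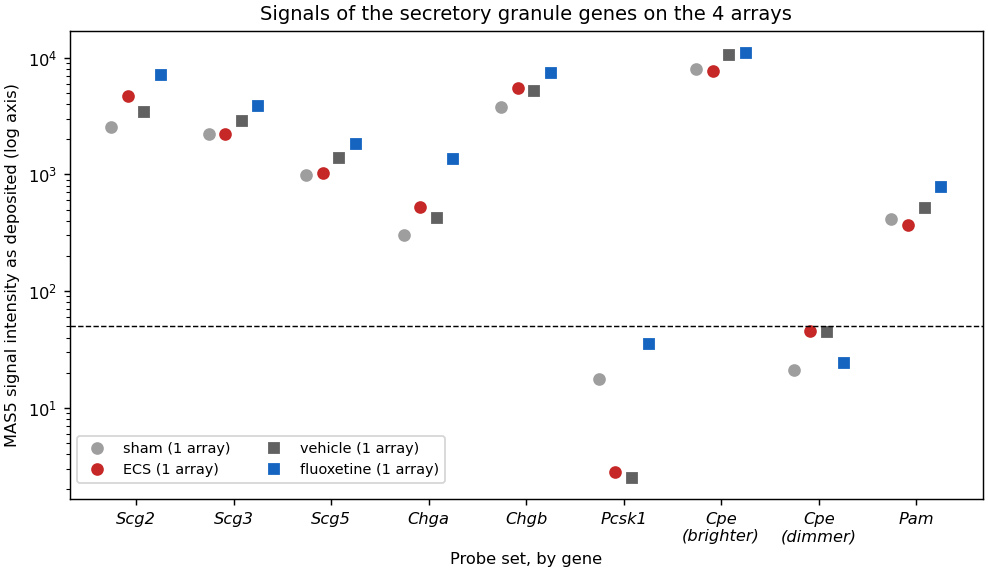
MAS5 signal intensity (log axis) of the 9 member probe sets on the sham, ECS, vehicle and fluoxetine arrays, 1 array per group and without error bars for that reason. The dashed line is the minimum mean signal of 50; 7 probe sets lie above it on every array, and Pcsk1 and the dimmer Cpe probe set lie below it on every array.

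The processing genes measured past the signal minimum gave smaller ratios than Scg2 and Chga. Pcsk1 encodes prohormone convertase 1/3, a main enzyme of precursor cleavage. Its only probe set, 1421396_at, read 17.8 on sham, 2.8 on ECS, 2.5 on vehicle and 35.1 on fluoxetine. All 4 signals were below 50, and with every signal below 50 taken as 50 its log2 ratio was 0.00 in both comparisons, so no level of Pcsk1 can be compared from these arrays. Scg5 encodes 7B2, the chaperone that prohormone convertase 2 needs to mature. Its signals on 1423150_at were 989.1, 1035.7, 1383.4 and 1809.7 in the order sham, ECS, vehicle and fluoxetine. The log2 ratios were 0.07 with ECS and 0.39 with fluoxetine, both short of 1.5-fold, and 0.18 and 0.26 after centring against a control spread of 0.15.

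Cpe encodes carboxypeptidase E, which trims the ends left by the convertases and also acts as a sorting receptor. The probe set 1415949_at read 7968.6 on sham, 7692.4 on ECS, 10581.0 on vehicle and 11070.4 on fluoxetine. Each treated array was close to its own control. The log2 ratios of -0.05 and 0.07 were both smaller in size than the control spread of 0.11, and after centring they were 0.06 and -0.06. The dimmer probe set of Cpe, 1439437_x_at, had signals of 20.9, 45.1, 45.0 and 24.0 in the same order, all below 50.

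Pam encodes the enzyme that amidates peptides. Its probe set 1418908_at read 414.8 on sham, 364.9 on ECS, 514.9 on vehicle and 775.5 on fluoxetine. The deposited signal was highest on fluoxetine and lowest on ECS. Relative to the median of its own array, Pam stood at log2 0.81 on sham, 0.73 on ECS, 0.62 on vehicle and 1.09 on fluoxetine. On that scale the vehicle array was lowest. The signal was 1.51-fold higher with fluoxetine (log2 ratio 0.59), barely past 1.5-fold, and the log2 ratio with ECS was -0.18. After centring the fluoxetine value was 0.47, after quantile normalization 0.44, and with a pseudocount of 16 it also missed 1.5-fold. The control ratio of Pam, 0.19, was the largest of the 7 and exceeded its control spread of 0.18. The log2 ratio of Pam with fluoxetine exceeded that with ECS by 0.78, or by 0.54 after centring, which was not tested.

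In counts, 2 of the 7 members were at least 1.5-fold higher with ECS, beside 3.84% of all 7935 genes, and 0 were lower, beside 6.47%. With fluoxetine 3 of 7 were higher, beside 8.49%, and 0 were lower, beside 3.26%. Both treatments gave higher signals of Scg2 and Chga, 2 of 7, beside 2.79% of all genes. The members are bright genes, with mean signals from 518 to 9328. Among the 2909 genes with a mean signal of at least 500, the shares were 2.68% higher with ECS, 5.84% higher with fluoxetine and 2.27% higher with both. After median-centring the members counted 3 with ECS (Scg2, Chga and Chgb) beside 5.34%, 2 with fluoxetine (Scg2 and Chga) beside 5.82%, and 2 with both beside 3.04%. The 7 members had a median log2 ratio of 0.07 for ECS, where the median of all genes was -0.10, and of 0.51 for fluoxetine, where it was 0.12. At a smaller size of 1.2-fold, 6 of 7 members were higher with fluoxetine, beside 30.5% of all genes. At 2-fold, 0 were higher with ECS, beside 1.4%, 2 with fluoxetine (Scg2 and Chga), beside 2.79%, and 0 with both, beside 1.03%. A set of 7 genes chosen with these data known is described by these counts and not tested.

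**Figure D3:**
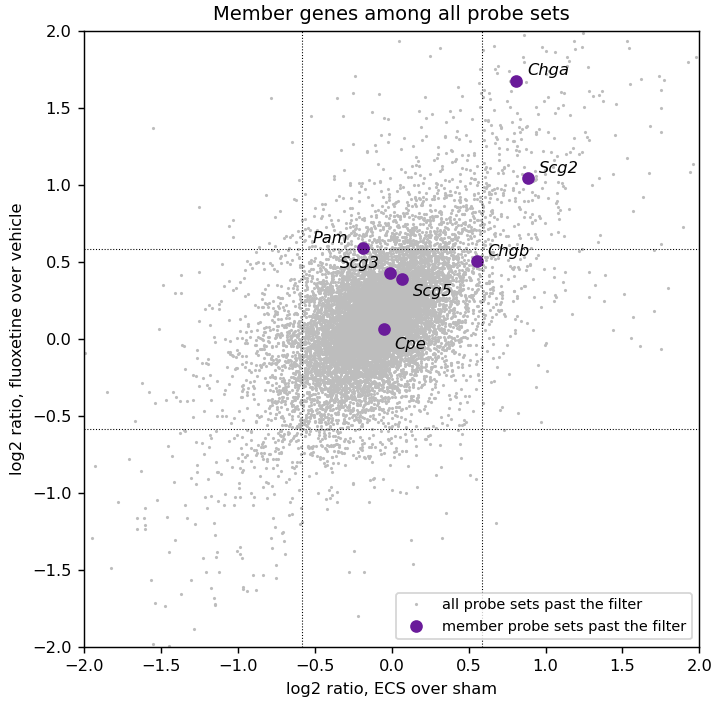
Log2 ratio of ECS over sham (horizontal) against log2 ratio of fluoxetine over vehicle (vertical) for each probe set past the signal minimum (grey) and for the 7 member probe sets (purple, named), with dotted lines at 1.5-fold; probe sets beyond 2 on either axis are not drawn. Scg2 and Chga lie past both lines at the upper right, Chgb just inside them, and Cpe near 0 on both axes.

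**Figure D4:**
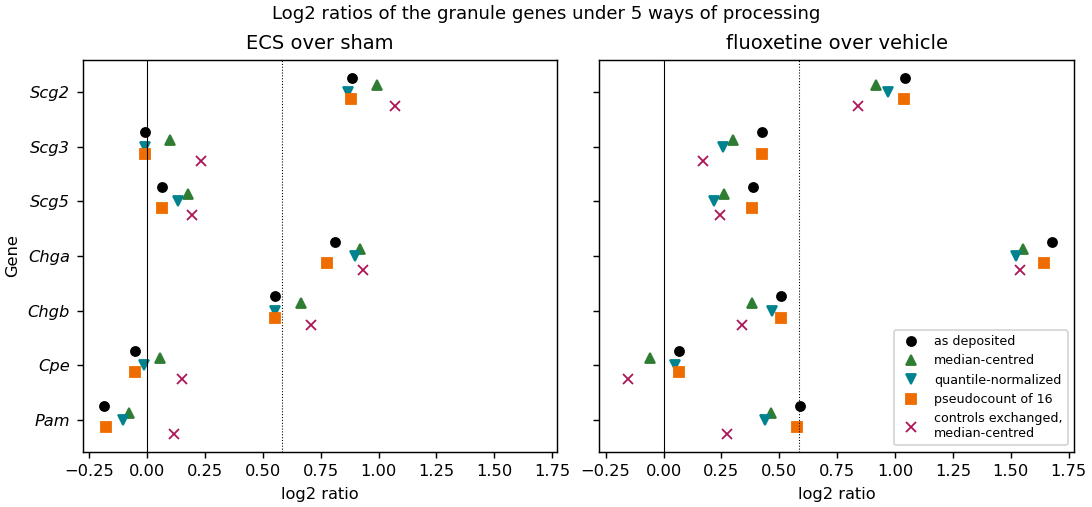
Log2 ratios of the 7 members under 5 ways of processing the 4 arrays, with ECS on the left and fluoxetine on the right and a dotted line at 1.5-fold. Scg2 and Chga stay past the line under each of the 5, while Chgb with ECS and Pam with fluoxetine fall on either side of it.

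The pair of ratios of Chga lay nearest to those of Socs2, a feedback inhibitor of cytokine signalling, at a Euclidean distance of 0.04 over the 2 log2 ratios, among 7935 genes. Pdlim4, Bgn, Parp3 and Slc27a3 followed at up to 0.13. For Scg2 the nearest were Gbp3 at 0.03, Ptprn at 0.05, Sqle at 0.05, Pfkp at 0.06 and S100a10 at 0.07. With only 2 ratios per gene, closeness is a description of these arrays.

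The ratios of the machinery around the granule were mixed in direction. Of 22 other processing enzymes and inhibitors, 17 were measured past the signal minimum. ECS gave 1 higher and 1 lower, beside 3.84% and 6.47% of all genes. Fluoxetine gave 2 higher and 0 lower, beside 8.49% and 3.26%. In a list of this size such counts lie near the shares. Their median log2 ratios were 0.05 and 0.21. Pcsk5, a further convertase gene, was the gene higher with both, with signals of 102.4, 165.4, 158.6 and 334.8 on sham, ECS, vehicle and fluoxetine and log2 ratios of 0.69 and 1.08. Rnpep, an aminopeptidase that removes basic residues, was lower with ECS (log2 ratio -0.71) and had a ratio of -0.27 with fluoxetine. Sec11a, a subunit of the signal peptidase, had ratios of 0.38 and 0.41, below 1.5-fold. Ctsb, the lysosomal protease cathepsin B, had 0.16 and 0.52 on its brightest probe set, and another of its probe sets gave -0.71 and -0.40, so its direction differed between probe sets.

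Of 32 genes of granule formation and release, 21 were measured past the minimum. With ECS 1 was higher and 0 were lower, beside 3.84% and 6.47% of all genes. With fluoxetine 2 were higher and 2 lower, beside 8.49% and 3.26%, again near the shares. The median log2 ratios were -0.04 and 0.00. Ptprn, which encodes the granule membrane protein IA-2, was the gene higher with both. Its signals were 372.0 on sham, 667.9 on ECS, 563.6 on vehicle and 1185.9 on fluoxetine, with both treated arrays above both controls. The log2 ratios were 0.84 and 1.07 (0.95 and 0.95 after centring), and its control spread was 0.15. Rab3c, a small GTPase of regulated secretion, was higher with fluoxetine (0.75) and had a ratio of 0.41 with ECS. Its other measured probe set gave 0.56 with fluoxetine, short of 1.5-fold, and 0.45 with ECS. Syt17, a synaptotagmin family gene, was lower with fluoxetine (-0.63) and had a ratio of -0.37 with ECS. Another probe set of Syt17 gave -0.74 with fluoxetine and -0.05 with ECS. Rab3d was the other gene counted as lower with fluoxetine (-0.66). Its other measured probe sets gave -0.02 and 0.68 with fluoxetine, so its direction differed between probe sets. Cadps2, a priming factor of dense-core granules, had ratios of -0.48 and -0.40, short of 1.5-fold.

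Of 18 peptide-degrading enzymes, 12 were measured past the minimum. With ECS 0 were higher and 2 lower, beside 3.84% and 6.47% of all genes. With fluoxetine 1 was higher and 1 lower, beside 8.49% and 3.26%. The medians were 0.03 and 0.17. Mme, the gene of neprilysin, which degrades enkephalins and tachykinins outside cells, was the gene lower with both, at log2 ratios of -1.45 and -1.39. Its signals were 91.0 on sham, 33.4 on ECS, 102.3 on vehicle and 39.1 on fluoxetine. Both treated signals were below 50, and with those taken as 50 the ratios were -0.86 and -1.03. The endothelin-converting enzyme gene Ece2 was lower with ECS (-0.79) with a ratio of 0.06 with fluoxetine, and its other measured probe set gave -0.14 and -0.27. Ece1 was higher with fluoxetine (0.63, but 0.51 and short of 1.5-fold after centring) and had a ratio of -0.19 with ECS. Ide, the insulin-degrading enzyme gene, had ratios of 0.13 and 0.43 on its brightest probe set. Its other measured probe sets ran from -0.33 to 0.14 with ECS and from 0.12 to 0.65 with fluoxetine. Its direction with ECS thus differed between probe sets.

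Of the 5 related lists, the cargo held the highest ratios. Of 32 peptide and growth factor precursors, 18 were measured past the minimum. With ECS 8 were higher and 2 lower, beside 3.84% and 6.47% of all genes. The 2 lower were Igf2 (log2 ratio -1.35, and -0.04 with fluoxetine) and Pdyn, the prodynorphin gene (-0.94, and 0.29 with fluoxetine). With fluoxetine 9 were higher and 0 lower, beside 8.49% and 3.26%. The median log2 ratios were 0.31 and 0.57. Both treatments gave higher signals of 7, beside 2.79% of all genes: Grp, Penk, Npy, Tac2, Gal, Bdnf and Pnoc. Tac2 read 30.7 on sham and 34.6 on vehicle and passed the signal minimum only through its treated arrays (139.3 and 306.1), and with signals below 50 taken as 50 its log2 ratios of 2.18 and 3.15 were 1.48 and 2.61. The log2 ratios of the 7 ran from 0.81 for Pnoc to 2.88 for Grp with ECS and from 1.25 for Pnoc to 3.77 for Grp with fluoxetine. The ratios of Scg2 and Chga with ECS were thus near that of Pnoc, the nociceptin precursor (signals 100.4, 176.4, 115.2 and 274.6 in the order above), at the low end of that range. Small synaptic vesicle genes were listed for comparison with the dense-core granule. Of these, 0 of 22 were higher with ECS, beside 3.84% of all genes, and 0 with fluoxetine, beside 8.49%. In a list of this size such counts lie near the shares and do not set it apart. With fluoxetine 1 was lower, beside 3.26%: Rph3a, encoding rabphilin 3A, at -0.70 (-0.52 with ECS). The median ratios of that list were -0.06 and 0.06. The synapsin genes Syn2 (0.38 and 0.38) and Syn1 (0.27 and 0.33) and the complexin gene Cplx1 (0.23 and 0.32) stayed below 1.5-fold.

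**Figure D5:**
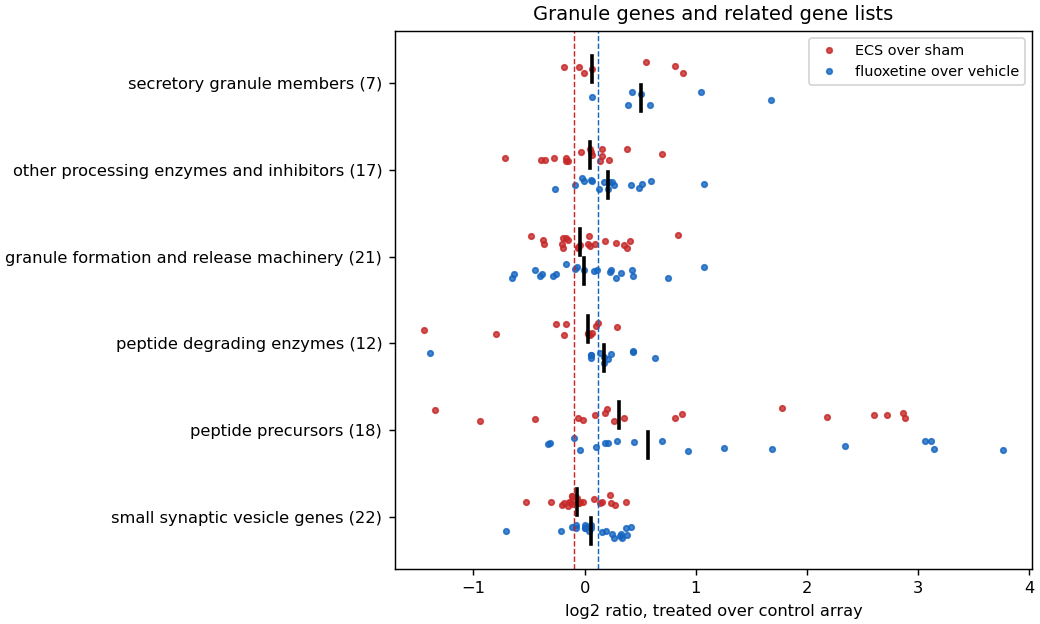
Log2 ratios of single genes past the signal minimum (dots, brightest probe set per gene) in the member set and 5 related gene lists, red for ECS over sham and blue for fluoxetine over vehicle; the number in brackets is the number of genes, black bars are list medians and dashed lines the medians of all genes. Peptide precursors spread from below -1 to above 3, members reach 1.68, and the small synaptic vesicle genes lie between -0.70 and 0.42.

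Other cell type markers also moved between the arrays. Beside the marker counts below, 3.84% of all genes were higher and 6.47% lower with ECS. With fluoxetine 8.49% were higher and 3.26% lower. In whole DG, more RNA per cell and more cells of a type cannot be told apart. Of 5 granule cell markers measured, 4 were lower with each treatment, with summed signals of 6077.5 on sham, 2579.0 on ECS, 9087.3 on vehicle and 2796.1 on fluoxetine. Scg2 and Chga were therefore higher on the arrays on which Calb1, Tdo2, Dsp and Il1r1 were lower. Prox1 had ratios of -0.19 and 0.22. The paper reports Calb1, Tdo2, Dsp and Il1r1 as reduced after repeated ECS and treats Calb1 and Tdo2 as markers of mature granule cells. It reports the neuronal marker NeuN as unaffected by that treatment. The count and sum of this list thus largely restate genes already known to be lower with ECS. They do not measure granule cell number, which was not tested. Of 9 interneuron markers, 2 were higher with ECS (Gad2 and Npy) and 4 with fluoxetine, at summed signals of 8814.2, 13083.2, 11508.3 and 19865.1. Npy, also a peptide precursor, read 757.0 on sham, 4977.7 on ECS, 870.0 on vehicle and 7521.9 on fluoxetine. It thus made up most of the rise of that sum with each treatment. Gad2 had ratios of 0.73 and 0.97, Reln 0.53 and 0.80, Vip 0.36 and 0.93, and Cck -0.45 and -0.32. Gad1 had 0.02 and 0.29 on its brightest probe set and 0.10 and 0.60 on its other one. Of 7 microglia markers 0 were higher with ECS and 3 with fluoxetine (sums 4727.3, 4291.2, 6350.5 and 8902.1), and of 8 astrocyte markers ECS gave 1 higher and 1 lower and fluoxetine 3 higher (sums 7893.1, 7876.3, 12275.2 and 15304.3). The astrocyte marker Gfap, which encodes glial fibrillary acidic protein, read 127.4 on sham, 601.5 on ECS, 195.0 on vehicle and 1048.0 on fluoxetine. Its log2 ratios were 2.24 and 2.43, higher on the same arrays as Scg2 and Chga. The other astrocyte markers did not share that size. Slc1a3 was the one lower with ECS (-0.64, and 0.05 with fluoxetine). With ECS, Gja1 had -0.19, Aldh1l1, S100b and Sox9 had 0.01 to 0.03, Aqp4 had 0.34 and Slc1a2 had 0.43. None of 7 oligodendrocyte markers reached 1.5-fold on its brightest probe set, with sums of 9514.3, 9397.5, 12942.4 and 14395.4. With ECS a dimmer probe set of Mobp gave 0.88 and a dimmer one of Mbp gave -0.78. After centring Sox10 was at -0.60 with fluoxetine. The 6 endothelial markers measured had sums of 659.3, 716.4, 897.0 and 1085.8. Of these Vwf was higher with fluoxetine, and its signals of 46.4, 44.9, 53.7 and 145.0 passed the minimum only through the fluoxetine array. Of 2 pyramidal cell markers measured, Bok was higher with both (0.83 and 0.85) and Wfs1 was not (-0.39 and -0.14). Of 4 choroid plexus markers with a probe set, Ttr, Folr1 and Otx2 were below 50 on every array, and Kl, with signals of 70.6, 53.9, 129.6 and 76.3, was lower with fluoxetine (-0.76) and had a ratio of -0.39 with ECS. The part of any of these cell types in the ratios of the granule genes was not tested.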

How the data were processed

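The authors pooled the RNA of each group, amplified 100 ng and computed 1 signal per probe set with MAS5, as the labels state, so the deposited values are linear signal intensities, without a common scale. The precision is limited by 1 array per group. Log2 ratios of ECS over sham and fluoxetine over vehicle were computed from the deposited signals with Python 3.11.15, numpy 2.4.6 and pandas 2.3.3, and figures were drawn with matplotlib 3.10.9. Probe sets whose signal averaged below 50 across the arrays were left out, and the brightest of the rest stood for a gene. A change was at least 1.5-fold. Gene names came from the platform annotation. Promoter windows came from RefSeq, and protein sequences were not used here. The named genes were all members; of each related list, genes past 1.5-fold in both comparisons and otherwise up to 4 with the largest mean absolute ratio; the 5 genes nearest to Chga and to Scg2; and markers. Rab3d was named in addition, for the difference between its probe sets, and Igf2 and Pdyn as the precursors lower with ECS. Members and lists were chosen with earlier results of these data known. Alternatives were other signal minimums, a floor of 50, a pseudocount of 16, median-centring, quantile normalization, exchanged control arrays, other probe set rules and other fold sizes. The steps were tested on simulated data.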

Additional observations from a re-analysis of the deposited data

Results flagged for a closer look

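Opposite signs in the 2 comparisons, each past 1.2-fold, were found for 2 member probe sets. For Pcsk1 the values were -2.67 (ECS) and 3.81 (fluoxetine) on the log2 scale, and for the dimmer probe set of Cpe (1439437_x_at) it was 1.11 and -0.91. All 8 signals lay below 50, the highest at 45.1, and with signals below 50 taken as 50 all 4 ratios were 0.00. The brighter Cpe probe set had -0.05 and 0.07. The difference between the comparisons was not tested.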

How the results depend on the processing

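Each of the 12 alternatives changed 1 choice, except that exchanged control arrays were also centred. Under 10 of them 140 member ratios were recomputed. They moved by less than the control spread of the probe set in 122 cases and by more in 18. Other signal minimums, the floor and other probe set rules could not move a member ratio. Each member signal was at least 301.2, from 1 probe set per gene. The 122 cases thus include ratios that were fixed in advance. All 18 larger moves came from median-centring, quantile normalization or exchanged control arrays. Of the called ratios 0 changed direction. The small ratios of Cpe in both comparisons and of Scg3 and Pam with ECS took either sign. Scg2 ran from 0.87 to 1.07 with ECS and from 0.84 to 1.04 with fluoxetine, and Chga from 0.78 to 0.93 and from 1.52 to 1.68, so both stayed past 1.5-fold under these alternatives. Chgb with ECS ran from 0.55 to 0.71 and Pam with fluoxetine from 0.27 to 0.59, on either side of 1.5-fold. Without a signal minimum 1 member, Pcsk1, counted as lower with ECS, and it also brought the members higher with fluoxetine to 4. With the control arrays exchanged and centred, the median log2 ratio of the members was 0.23 with ECS and 0.27 with fluoxetine. At 1.2-fold 6 of 7 members were higher with fluoxetine, beside 30.5% of all genes, and at 2-fold 0 were higher with ECS, beside 1.4%, and 0 with both, beside 1.03%. No paired analysis was possible because each group has 1 array. Each measured member has 1 probe set past the minimum, so other probe set rules could not alter the counts. Dim signals set a lower limit: Pcsk1 and the 1439437_x_at probe set of Cpe give no usable ratio.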
